A study of Homo sapiens with 12 samples.

Results

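These data compare LNCaP cells depleted of paxillin with control cells while both were exposed to the androgen dihydrotestosterone (DHT). LNCaP is an established, androgen-sensitive prostate cancer line that was derived from a lymph node metastasis. The comparison uses 6 of the 12 RNA-seq libraries of the study, namely 3 from cells given siRNA against PXN, the gene of paxillin, and 3 from cells given a non-specific control siRNA, and it covers all 36137 genes of the count table. All 4 groups of the study were treated alike up to the last step: siRNA for 48 h, then 12 h without serum. The DHT arm then received 2.5 nM DHT for 24 h and the vehicle arm received ethanol for the same time, with 3 libraries for each siRNA in each arm. How many siRNAs were used, and their sequences, is not stated in the labels, and all libraries come from 1 cell line. Nothing in the labels says whether the replicates were separate cultures, so the p-values measure the spread between these libraries, which may be technical.

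Paxillin is a scaffold protein of focal adhesions, the sites where integrins couple the actin cytoskeleton to the matrix outside the cell, and it binds kinases such as FAK and SRC. DHT acts through a nuclear hormone receptor that, once bound, switches on genes such as KLK3, the gene of prostate-specific antigen. Paxillin has been studied in prostate cancer cells as a protein that carries signals between growth factor kinases and the androgen response, and the 2 by 2 layout makes it possible to compare the effect of its loss with and without androgen.

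The libraries held 34321000 to 38633456 counts. After a filter on low counts, 18468 genes were tested and 17669 were left out. Levels are given as CPM, a count scaled to library size by the trimmed mean of M values, and changes as log2 of PXN siRNA over control siRNA, so that negative values are falls. A gene is said to have risen or fallen where its p-value from edgeR's quasi-likelihood test, adjusted over all genes tested by the Benjamini-Hochberg method, was under 0.05. In a principal component analysis of all 12 libraries the first component, with 62.3% of the variance, separated the siRNAs. Replicate 1 was the lowest library of its group, for either siRNA under DHT, in the summed level of androgen-induced genes. This sum over 58 listed genes was 14900, 17160 and 17450 CPM in the control libraries under DHT and 8345, 10060 and 9747 CPM in the PXN siRNA libraries under DHT. In bulk RNA, fewer cells of a kind and less RNA per cell cannot be told apart.

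PXN itself, at chr12:120210439-120265771, minus strand (GRCh38, GENCODE 29), fell under both treatments. Its level under DHT was 113, 99.7 and 104 CPM in the control libraries and 20.0, 18.1 and 16.6 CPM in the PXN siRNA libraries. The groups lay far apart, and the libraries match their labels. The means were 106 ± 7.03 and 18.2 ± 1.70 CPM (SD, n = 3), a log2 change of -2.54 (SE 0.11) with edgeR adjusted p = 9.52e-09. Under vehicle the change was -2.66 (SE 0.11), so the depletion was of like size in both arms, and the difference between the arms was 0.13 (SE 0.16) with unadjusted p = 0.43.

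**Figure D1:**
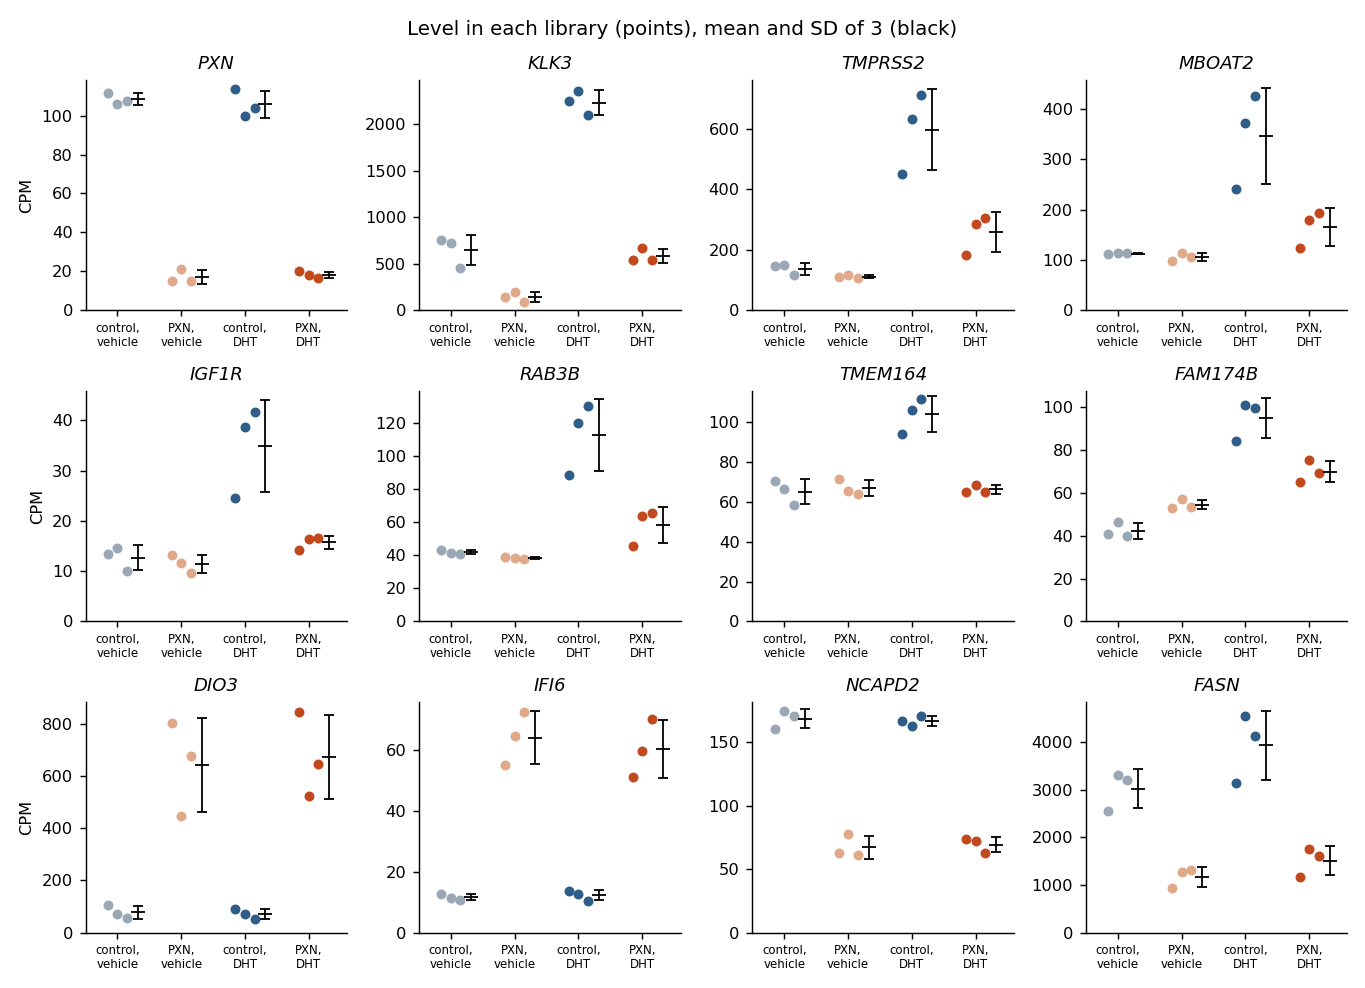
Level in CPM, on linear axes from 0, of 12 genes in each of the 12 libraries (points), with the mean and SD of each group of 3 in black. PXN and KLK3 are lower with PXN siRNA in both arms, whereas MBOAT2, IGF1R, RAB3B and TMEM164 stand high in the control siRNA libraries under DHT and are close between the siRNAs under vehicle.

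With PXN siRNA under DHT 4622 genes rose and 4939 fell, together 9561 of the 18468 genes tested, or 51.8%. Those that rose were 25.0% of the genes tested and those that fell 26.7%. The counts of gene lists under DHT given below are to be read against these shares. At a change of at least 2-fold the calls were 1631 higher and 746 lower, or 8.83% and 4.04%, and at 4-fold they were 419 higher and 57 lower. Under vehicle 4423 genes rose and 4853 fell, or 23.9% and 26.3%. The 2 arms share no library, and 7869 genes were called in the same direction in both. The balance of rises and falls depends on the scaling. Upper-quartile scaling placed the median of all genes at 0.13 in place of 0.027 and counted 60.72% of the calls as rises in place of 48.34%.

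Rises and falls were spread unevenly over expression levels. Among the 4432 genes with a mean under 1 CPM over the 6 DHT libraries, 1039 rose and 207 fell, with a median log2 change of 0.38. Of the 2434 genes at 100 CPM or more, 359 rose and 1278 fell, with a median of -0.20. By annotated class, 33.34% of 13133 protein-coding genes fell and 25.26% rose, whereas 7.13% of 841 pseudogenes fell and 32.22% rose. Long intergenic non-coding genes also rose more often than they fell, 29.62% against 11.85% of 287. These classes could be matched for 80.9% of the genes tested. The part that expression level and class have in the counts of gene lists below was not tested.

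Most listed androgen-induced genes fell in the DHT arm, in a list chosen with earlier results of these data known. Of 58 listed and tested genes known to be switched on by androgen, 38 fell and 5 rose, with a median log2 change of -0.96, where 26.7% of all genes fell and the median of all genes was 0.027. In the vehicle arm 25 of them fell and 11 rose, with a median of -0.29. The 2 groups under DHT did not overlap for 39 of the 58, and over all genes tested the groups did not overlap for 59.9%. In 21 of the 58 the mean with PXN siRNA under DHT was below the mean of control cells that had received no DHT. The share of all genes tested that met this condition was not counted, so the 21 cannot be read as an excess.

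KLK3, at chr19:50854915-50860764, plus strand, is the best known of these genes. Under DHT it stood at 2250, 2358 and 2097 CPM in the control libraries and at 538, 673 and 539.7 CPM with PXN siRNA. The groups did not overlap, and every PXN siRNA library under DHT lay within the range of control cells under vehicle, which was 762, 725 and 459 CPM. The log2 change was -1.94 (SE 0.23) (adjusted p = 9.18e-06, edgeR). KLK3 also fell under vehicle, to 142, 192 and 86.2 CPM, a change of -2.21 (SE 0.24).

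The 250 bases before the RefSeq start of KLK3 (GRCh38.p14, chr19:50854665-50854914, plus strand) are shown because this stretch holds a match to the androgen response element half-site AGAACA, in capitals.
KLK3: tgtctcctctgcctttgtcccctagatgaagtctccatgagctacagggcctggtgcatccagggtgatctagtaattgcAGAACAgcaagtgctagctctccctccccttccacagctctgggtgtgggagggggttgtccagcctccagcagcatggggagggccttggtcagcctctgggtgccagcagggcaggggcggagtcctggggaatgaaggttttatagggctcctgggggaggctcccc
Promoter windows of 300 bases, 250 before and 50 after a start, were at hand for 42 of the 58 genes, which had 77 windows. AGAACA or its reverse complement TGTTCT was in 9 of the 77, or 11.69%, against 14.79% of all 35116 windows and 10.26% of the windows of tested genes. A match is a description of the letters and not of binding by a factor.

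Other androgen-induced genes fell in both arms. FKBP5, a chaperone of steroid receptors, went from 99.8, 219.8 and 342 CPM in the control libraries under DHT to 29.5, 57.3 and 83.9 CPM. These control libraries differed widely and the groups still did not overlap. Its log2 change was -1.95 (SE 0.37) under DHT and -1.51 (SE 0.38) under vehicle. KLK2, a protease next to KLK3 in the kallikrein cluster, had changes of -1.69 (SE 0.33) and -1.99 (SE 0.36).

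The members with the smallest p-values under DHT were AZGP1, HERC3, PPAP2A and ELOVL7. AZGP1, a secreted glycoprotein, fell from 27.2 ± 1.93 to 10.8 ± 0.942 CPM (SD, n = 3), a log2 change of -1.33 (SE 0.09). HERC3, a HECT-domain ubiquitin ligase, fell from 304 ± 45.4 to 110.4 ± 11.8 CPM (SD, n = 3), a change of -1.46 (SE 0.11). ELOVL7, which lengthens fatty acids, went from 92.3, 142 and 134 to 28.4, 34.5 and 33.9 CPM. All 4 also fell under vehicle, where the change was -0.81 (SE 0.11) for HERC3 and -1.29 (SE 0.19) for ELOVL7. Against the direction of the list, MAF, a transcription factor, rose by 1.29 (SE 0.22) and TBC1D8 by 0.72 (SE 0.12) on the log2 scale.

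**Figure D2:**
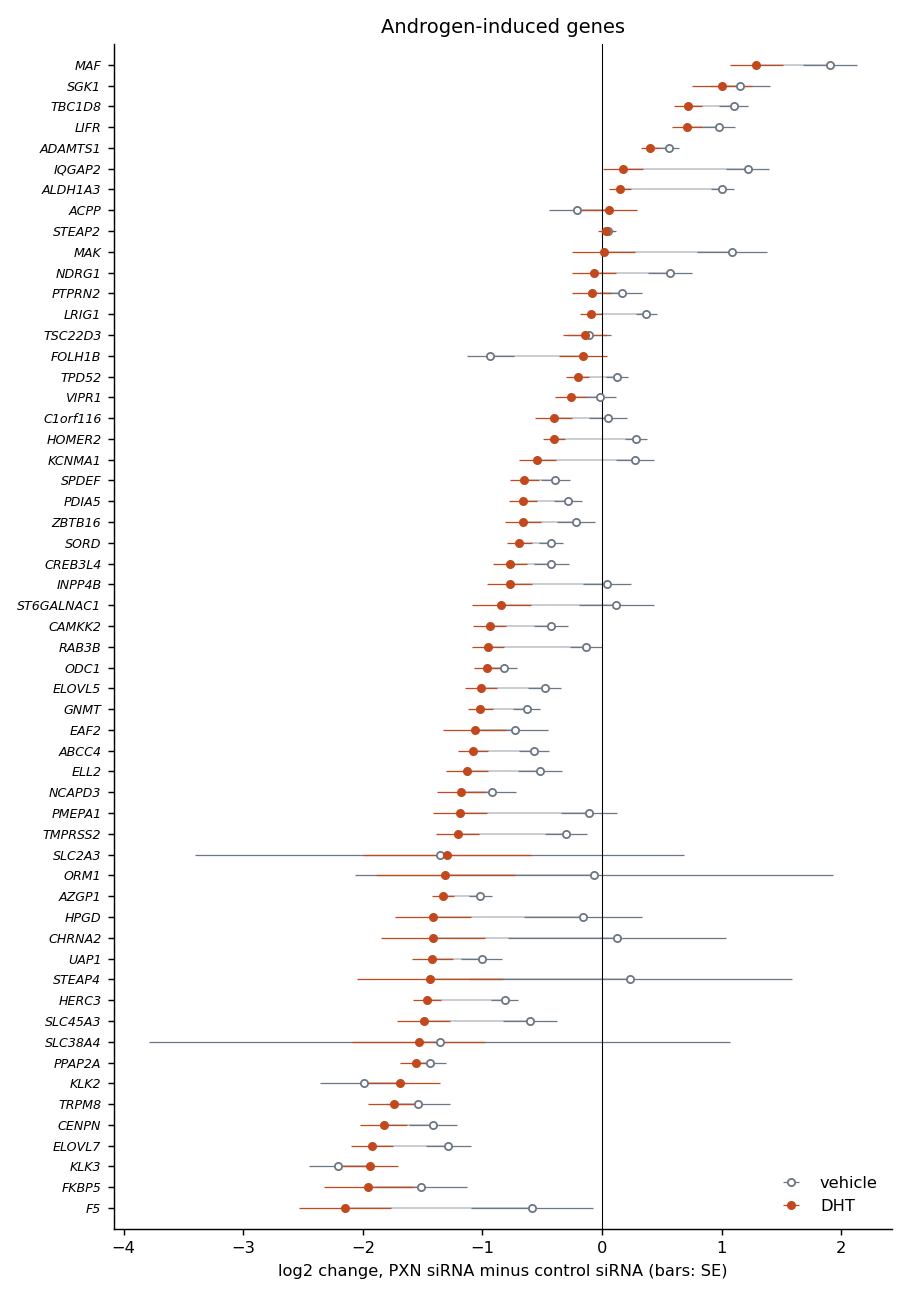
Log2 change with PXN siRNA for 56 of the 58 androgen-induced genes under DHT (filled points) and under vehicle (open points), with bars for the SE, sorted by the change under DHT. Most points under DHT lie left of 0 and, for most genes, left of the point for vehicle.

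The difference between the arms was tested directly, as the change under DHT minus the change under vehicle. No gene of 18468 passed at an adjusted p under 0.05 in edgeR, which is 0.0%, and the smallest adjusted p was 0.1146. At an unadjusted p under 0.05 there were 778 genes, or 4.21%. Limma-voom also called none, and DESeq2's Wald test called 37, of which 34 had a lower value under DHT than under vehicle. Without replicate 1 of the control siRNA under DHT, edgeR called 45, and with no low-count filter it called 35. A fit with a replicate block, which also called genes, is described at the end. Of the 58 androgen-induced genes, 27 had an unadjusted p under 0.05 and 26 of these were more negative under DHT. That list was chosen with earlier results of these data known, so the count is a description and not a test. The median difference over the list was -0.42, and that over all genes was 0.011. ACPP, STEAP2 and KLK3 were among the members whose unadjusted p was over 0.05, with differences of 0.27 (SE 0.33), -0.02 (SE 0.10) and 0.27 (SE 0.32).

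**Figure D3:**
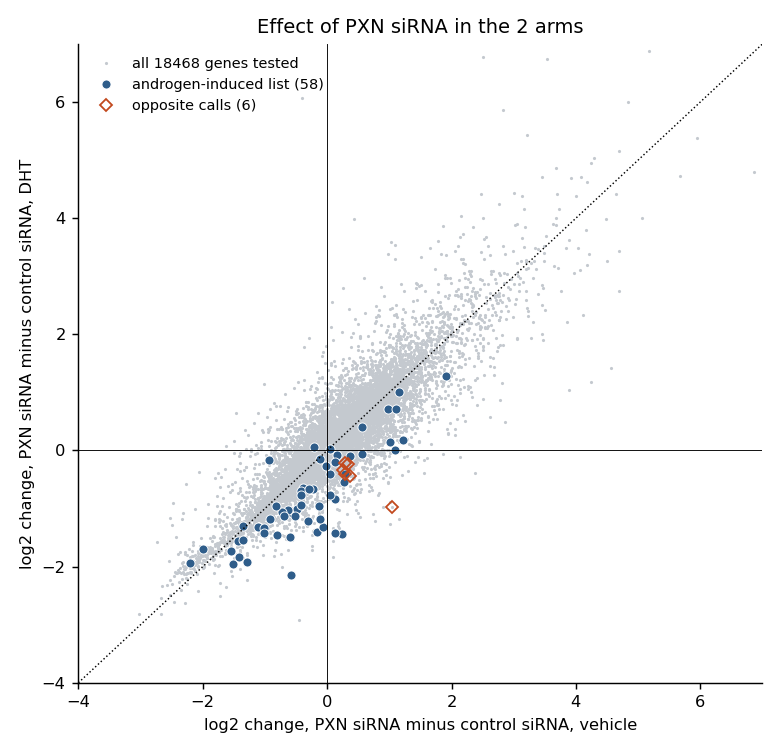
Log2 change with PXN siRNA under vehicle (horizontal axis) and under DHT (vertical axis) for the 18468 genes tested (grey), the 58 androgen-induced genes (blue) and the 6 genes called in opposite directions (open diamonds). Most genes lie along the dotted line of equal change, and most androgen-induced genes lie below it.

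By the rule of a call under DHT of at least 1.5-fold and no call under vehicle, 531 genes rose and 170 fell, or 2.88% and 0.921% of the genes tested. Most of them moved the same way under vehicle without passing the test there, 506 of the 531 and 146 of the 170. The median change of the 170 was -1.04 under DHT and -0.43 under vehicle, and that of the 531 was 1.05 and 0.47. Many were weakly expressed, since 312 of the 531 and 83 of the 170 had a mean under 1 CPM in the higher DHT group. For 131 of the 701 the difference between the arms had an unadjusted p under 0.05. The count of 701 depended on single libraries, and was 464 without replicate 3 of the control siRNA under DHT. Testing only genes that averaged 1 CPM or more left 249.

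Of the 58 androgen-induced genes, 11 fell by this rule and none rose. One was TMPRSS2, at chr21:41464551-41531116, minus strand, a serine protease of the cell surface. Its level under DHT was 449, 631 and 710.4 CPM in control libraries and 184, 286 and 306 CPM with PXN siRNA. Under vehicle it was 145, 151 and 115 CPM in control libraries and 111, 117 and 106 CPM with PXN siRNA. The groups were apart under DHT, and under vehicle they were close, with 1 control library inside the range of the PXN siRNA libraries. The log2 change was -1.21 (SE 0.18) under DHT (adjusted p = 6.37e-05, edgeR) and -0.30 (SE 0.18) under vehicle (adjusted p = 0.178). The difference between the arms had an unadjusted p of 0.00285 and an adjusted p of 0.729 in edgeR. TMPRSS2, RAB3B, MBOAT2 and IGF1R were named for a small p of this difference, so that p is no test of them.

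RAB3B, a small GTPase of vesicle release at chr1:51907956-51990764, minus strand, also fell by the rule. It stood at 88.7, 120.1 and 131 CPM in control libraries under DHT and at 46.0, 63.8 and 65.7 CPM with PXN siRNA. Under vehicle the values were 43.5, 41.4 and 41.1 and 38.99, 38.2 and 37.6 CPM. Both vehicle groups lay close together without overlap, and the fall under DHT left the PXN siRNA libraries above both vehicle groups. Its log2 change was -0.95 (SE 0.13) under DHT and -0.13 (SE 0.14) under vehicle. The difference had an unadjusted p of 6.44e-04 and an adjusted p of 0.425 in edgeR.

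MBOAT2, which attaches acyl chains to lysophospholipids, lies at chr2:8852690-9003813, minus strand. Under DHT it was at 242, 372 and 426 CPM in control libraries and at 124, 181 and 193 CPM with PXN siRNA. Under vehicle all 6 libraries lay between 99.0 and 115 CPM. The siRNAs thus differed in 1 arm and lay close in the other, with log2 changes of -1.06 (SE 0.18) and -0.08 (SE 0.18). The difference between the arms had an adjusted p of 0.614 in edgeR.

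IGF1R, the receptor of insulin-like growth factors at chr15:98648539-98964530, plus strand, went from 24.5, 38.7 and 41.7 CPM to 14.3, 16.3 and 16.7 CPM under DHT. Under vehicle it was at 13.5, 14.7 and 9.98 CPM in control libraries and at 13.2, 11.6 and 9.70 CPM with PXN siRNA. The PXN siRNA libraries under DHT lay in or just above the range of the vehicle libraries of either siRNA. Its log2 change was -1.15 (SE 0.18) under DHT (adjusted p = 9.61e-05, edgeR) and -0.15 (SE 0.19) under vehicle (adjusted p = 0.539). For the difference between the arms the adjusted p was 0.645 in edgeR.

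TMEM164, at chrX:110002631-110182734, plus strand, had among the smallest p-values for the difference between the arms. It stood at 93.9, 106 and 112 CPM in control libraries under DHT and at 64.8, 68.6 and 65.1 CPM with PXN siRNA. Under vehicle it stood at 70.6, 66.6 and 58.2 and 71.3, 65.3 and 63.8 CPM. The control libraries under DHT were the 3 highest of the 12. The difference between the arms was -0.69 (SE 0.11), with an unadjusted p of 2.54e-05 and an adjusted p of 0.157 in edgeR.

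The other genes that fell by the rule and were named for a small p of the difference include BICD2, CSGALNACT1, TNS3 and ZNF812. BICD2 couples cargo to dynein, CSGALNACT1 starts chondroitin sulfate chains and TNS3 is a tensin of focal adhesions. Their log2 changes under DHT lay between -0.61 for BICD2 and -1.37 for TNS3. Under vehicle they lay between -0.21 for ZNF812 and 0.25 for CSGALNACT1. CSGALNACT1 was at 8.85, 13.3 and 15.9 CPM in control libraries under DHT and at 6.43, 6.82 and 7.598 CPM with PXN siRNA, and its difference between the arms was -1.12 (SE 0.27).

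The 10 genes named among those that rose by the rule were KIAA1841, FBXL7, RNF217, LRRC37A11P, RP11-293M10.6, GATA6, ISL2, RNF32, SPAG8 and AC005077.14. GATA6, a zinc finger transcription factor of endoderm, went from 3.43, 3.82 and 3.30 CPM to 6.40, 6.46 and 5.996 CPM under DHT, and from 4.28, 4.43 and 5.72 to 5.53, 4.95 and 6.41 CPM under vehicle. The groups were apart under DHT and overlapped under vehicle. ISL2, a LIM homeodomain factor, had a change of 1.45 (SE 0.23) under DHT and 0.47 (SE 0.21) under vehicle. KIAA1841 went from 8.17, 5.81 and 7.55 to 11.5, 11.1 and 11.9 CPM under DHT, and the PXN siRNA libraries lay in the range of the vehicle libraries, at 10.8, 10.8 and 12.7 CPM with control siRNA.

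**Figure D4:**
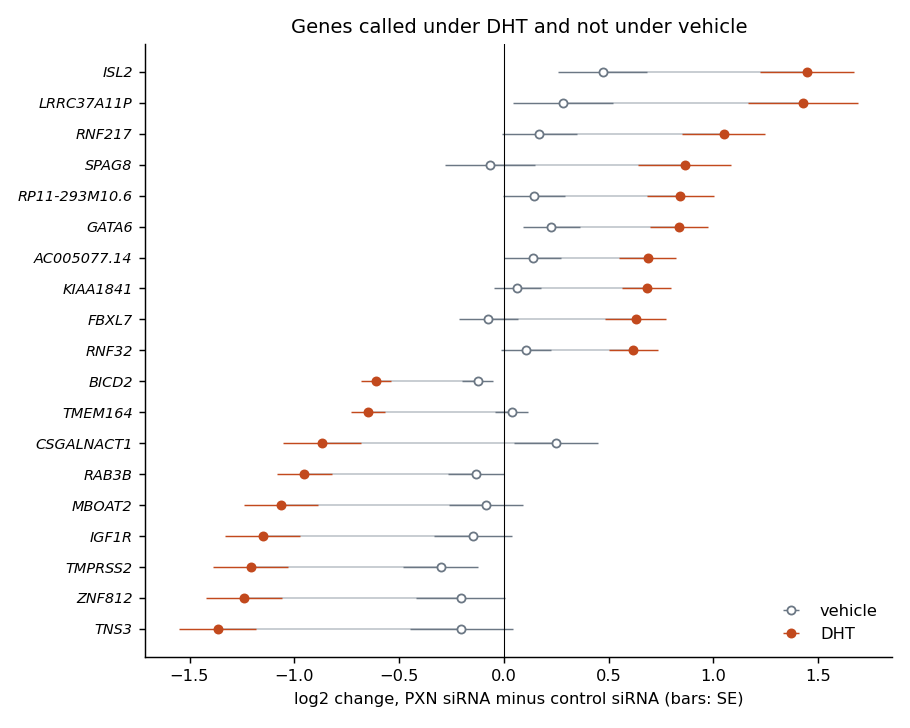
Log2 change with PXN siRNA under DHT (filled points) and under vehicle (open points), with bars for the SE, for 19 named genes that were called under DHT and not under vehicle. Filled points lie beyond a 1.5-fold change on either side of 0 and open points lie nearer to 0.

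There were 6 genes called in opposite directions in the 2 arms, all higher with PXN siRNA under vehicle and lower under DHT. They are CDYL2, DSC1, FAM174B, HOMER2, PTPRJ and ZMIZ1. FAM174B, at chr15:92617443-92809884, minus strand, was at 83.9, 101 and 99.5 CPM in control libraries under DHT and at 65.1, 75.1 and 69.3 CPM with PXN siRNA. Under vehicle it was at 40.7, 46.3 and 39.6 and 53.02, 56.9 and 53.4 CPM. In each arm the siRNA groups did not overlap, and the order of the siRNAs was reversed. The log2 changes were -0.44 (SE 0.08) and 0.37 (SE 0.08), and the difference had the smallest p of all genes, 6.21e-06 unadjusted and 0.115 adjusted in edgeR. HOMER2, a scaffold protein, is also on the androgen-induced list. It went from 137, 169.7 and 189 CPM to 119, 126 and 129 CPM under DHT and from 80.6, 73.9 and 74.9 to 97.7, 87.6 and 93.5 CPM under vehicle.

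The changes of the other 4 were smaller or at low levels. DSC1, a desmosomal cadherin, went from 1.73, 2.10 and 2.82 CPM to 1.12, 0.970 and 1.30 CPM under DHT. ZMIZ1, a transcriptional coactivator, changed by -0.22 (SE 0.07) under DHT and 0.29 (SE 0.07) under vehicle. PTPRJ, a receptor tyrosine phosphatase, changed by -0.24 (SE 0.09) and CDYL2, a chromodomain protein, by -0.34 (SE 0.10) under DHT. Some of these calls did not hold in other settings. Upper-quartile scaling ended those of CDYL2, PTPRJ and ZMIZ1, with edgeR adjusted p = 0.0679, 0.230 and 0.224. Leaving out replicate 3 of the control siRNA under DHT also ended those of CDYL2 and ZMIZ1, at 0.0520 and 0.0808. Without replicate 2 of PXN siRNA under DHT, PTPRJ and ZMIZ1 were at 0.0957 and 0.0544, and PTPRJ was at 0.0868 without replicate 2 of the control siRNA under DHT. Testing only genes that averaged 1 CPM or more ended the calls of PTPRJ and ZMIZ1 as well.

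The smallest p-values for the difference also included ALDH1A3, PTPRM and GRAMD1C. ALDH1A3, which makes retinoic acid, was at 50.3, 58.2 and 58.9 CPM in control libraries and 59.0, 61.1 and 65.6 CPM with PXN siRNA under DHT. Under vehicle it was at 27.5, 22.8 and 20.9 and 48.2, 43.2 and 51.3 CPM. The groups were far apart under vehicle and adjoining under DHT, where the change of 0.15 (SE 0.10) did not pass, with a difference of -0.86 (SE 0.14). PTPRM, another receptor phosphatase, had changes of -0.04 (SE 0.10) under DHT and 0.75 (SE 0.10) under vehicle. GRAMD1C, a sterol transfer protein, rose more under DHT, by 1.70 (SE 0.10) against 0.93 (SE 0.10).

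Androgen-repressed genes were measured as the counterpart, with a list also chosen with earlier results of these data known. Of 20 tested, 10 rose and 3 fell under DHT, where 25.0% of all genes rose and 26.7% fell. Their median log2 change was 0.34. Under vehicle 7 rose and 5 fell, with a median of 0.03. OPRK1, the kappa opioid receptor, went from 15.7, 12.2 and 12.9 CPM to 23.4, 23.0 and 28.3 CPM under DHT. DDC, which makes dopamine and serotonin, rose by 0.89 (SE 0.15) under DHT and 0.56 (SE 0.15) under vehicle. VWA2 rose by 1.76 (SE 0.20) and 1.07 (SE 0.18). PEG3, an imprinted zinc finger gene, was among those that fell. For 6 of the 20 the difference between the arms had an unadjusted p under 0.05 in edgeR, 5 of them toward higher values under DHT. Over all genes tested 4.21% had such a p, and none passed after adjustment.

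Among 45 coregulators and chaperones of steroid receptors, 22 fell and 7 rose, with a median of -0.18, where 26.7% of all genes fell and 25.0% rose. Falls were more common at higher levels, 2836 of 7341 genes at 10 to 100 CPM and 1278 of 2434 at 100 CPM or more. The medians there were -0.08 and -0.20, and the part of expression level in the count of this list was not tested. HOXB13, a prostate homeobox factor, fell from 509 ± 12.7 to 291 ± 6.68 CPM (SD, n = 3), a log2 change of -0.81 (SE 0.06). NCOA4 fell by 0.70 (SE 0.06) on the log2 scale, and NCOA3, a p160 coactivator, rose by 0.56 (SE 0.07). Upper-quartile scaling changed the count to 14 lower and 11 higher. Of 12 luminal prostate markers, 8 fell and none rose, or 1 rose without replicate 1 of the control siRNA under DHT, and those that fell include KLK3, TMPRSS2 and HOXB13. FOXA1 fell by 0.22 (SE 0.06), a call that upper-quartile scaling ended, and KRT8, a keratin of luminal cells, changed by 0.01 (SE 0.08) and did not pass.

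Most listed genes of secretory transport and glycosylation fell, where 26.7% of all genes tested fell. Of 52 genes of transport from the endoplasmic reticulum to the Golgi, 43 fell and none rose, with a median of -0.36. MCFD2, a cargo receptor subunit, fell from 114 ± 2.65 to 34.8 ± 1.48 CPM (SD, n = 3), and SSR1, a subunit of the translocon-associated complex, from 440.2 ± 29.1 to 169.9 ± 13.7 CPM (SD, n = 3). Of 54 glycosylation enzymes 37 fell and 6 rose. GALNT7, which begins mucin-type chains, fell by 0.98 (SE 0.09) under DHT and changed by -0.56 (SE 0.09) under vehicle. The difference had an unadjusted p of 0.0034 and an adjusted p of 0.741 in edgeR. MAN1A1, which trims mannose, went the other way and rose from 20.4, 8.86 and 8.77 CPM to 191, 94.1 and 108 CPM.

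The unfolded protein and integrated stress responses split. Of 32 genes, 19 fell and 9 rose. For 8 the difference between the arms had an unadjusted p under 0.05 in edgeR, all 8 more negative under DHT. Over all genes tested the share at that p was 4.21%, and none passed after adjustment. The list was chosen with earlier results of these data known, so the count is a description and not a test. The chaperone HYOU1 fell from 622 ± 25.6 to 329 ± 38.6 CPM (SD, n = 3), and EDEM1 and CRELD2 fell by 0.65 (SE 0.07) and 0.67 (SE 0.11). DDIT3, the stress factor CHOP, rose from 23.6, 23.1 and 21.2 CPM to 69.5, 51.7 and 68.7 CPM, and PPP1R15A, a phosphatase subunit that restores translation, rose by 1.38 (SE 0.14). Both of these rises were of like size under vehicle, 1.40 (SE 0.12) and 1.22 (SE 0.13).

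Most listed genes of lipid synthesis fell, where 26.7% of all genes tested fell. Of 35 genes of fatty acid and glycerolipid synthesis 24 fell and 2 rose, with a median of -0.70. FASN, the fatty acid synthase at chr17:82078333-82098332, minus strand, went from 3136, 4541 and 4119 CPM to 1174, 1753 and 1601 CPM. SCD, which desaturates fatty acids, went from 3384, 3095 and 2911 CPM to 1026, 1222 and 1140 CPM. The groups did not overlap for either gene, and the log2 changes were -1.38 (SE 0.17) and -1.47 (SE 0.12). ELOVL6, an elongase, fell by 2.11 (SE 0.13). Of 33 genes of cholesterol synthesis and sterol sensing 25 fell and 6 rose. INSIG1, which retains the sterol sensor in the endoplasmic reticulum, fell by 1.36 (SE 0.13). NPC2, which carries cholesterol out of lysosomes, rose by 0.52 (SE 0.07).

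Of 27 fatty acid oxidation genes 12 fell and 4 rose, the latter 2 when any of replicate 3 of the control siRNA, replicate 1 or replicate 3 of PXN siRNA under DHT was left out. PPARA, a nuclear receptor of that pathway, fell by 0.80 (SE 0.08), and ACAA2, a thiolase, rose by 0.99 (SE 0.17). Polyamine and one-carbon genes fell in 24 of 33 cases and rose in 3, or in 6 with upper-quartile scaling. AMD1, which makes the aminopropyl donor of polyamines, went from 1160, 1064 and 1190 CPM to 454, 458 and 476 CPM, and SRM, spermidine synthase, fell by 1.22 (SE 0.11). SAT1, which breaks polyamines down, rose by 0.89 (SE 0.17).

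Genes of cell division fell in both arms. All 60 mitosis and cytokinesis genes tested fell under DHT, 58 of them at least 2-fold, with a median log2 change of -1.87, and under vehicle all 60 fell with a median of -2.07. All 49 DNA replication genes fell as well, with a median of -1.18. The mitosis genes summed to 3271, 3353 and 3494 CPM in control libraries under DHT and to 1092, 1158 and 916 CPM with PXN siRNA. NCAPD2, a condensin subunit, went from 166, 163 and 170.4 CPM to 73.6, 71.8 and 62.5 CPM, with a log2 change of -1.27 (SE 0.09) (adjusted p = 1.37e-07, edgeR). CEP55, which acts at the last step of cytokinesis, fell by 2.22 (SE 0.16), and INCENP, of the chromosomal passenger complex, by 1.46 (SE 0.10).

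The upstream 250 bases of NCAPD2 (RefSeq, GRCh38.p14, chr12:6493852-6494101, plus strand) are shown for a match, in capitals, to the cell cycle genes homology region. This is a short element of genes that peak in mitosis.
NCAPD2: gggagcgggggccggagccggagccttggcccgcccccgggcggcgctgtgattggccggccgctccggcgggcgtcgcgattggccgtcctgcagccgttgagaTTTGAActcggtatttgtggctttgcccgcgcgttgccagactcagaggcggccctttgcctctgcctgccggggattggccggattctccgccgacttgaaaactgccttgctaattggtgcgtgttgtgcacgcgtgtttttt
The element was searched as TTTGAA or TTCGAA on both strands, and a match is again a description of the letters only. A match was in 42 of 63 windows of 50 listed mitosis genes, or 66.67%. The shares were 16.35% of all 35116 windows and 11.96% of the 15864 windows of tested genes. The window around each match in CEP55 and INCENP, which fell too, is shown for comparison on the strand of the gene.
CEP55, first match: tctccgcccTTCAAAggcggcagc
CEP55, second match: gccgcgggaTTCAAActcccggaa
INCENP: gccttcagtTTTGAAaatcatagt
The second match of CEP55 begins 3 bases before the start, and that of INCENP 10 bases before it. The match of NCAPD2 begins farther away, 145 bases before the start.

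Replication genes with the smallest p-values were POLA2, MCM3, MCM4 and RRM1. MCM4, a subunit of the replicative helicase, fell from 149.6 ± 7.28 to 55.8 ± 4.22 CPM (SD, n = 3), and RRM1, of ribonucleotide reductase, by 1.05 (SE 0.07) on the log2 scale. Of 51 genes of homologous recombination, Fanconi and mismatch repair 38 fell and 2 rose, the 2 being ATM, by 0.64 (SE 0.08), and LIG4, a ligase of end joining, by 0.31 (SE 0.06). BLM, a helicase, fell by 2.12 (SE 0.15). Among cyclins, CDK inhibitors and RB/E2F genes, 21 of 36 fell and 6 rose. CCND1, cyclin D1, went from 329, 337 and 352 CPM to 152, 164 and 146 CPM. CDKN1A, the inhibitor p21, rose from 388, 331 and 287 CPM to 813, 509 and 618 CPM, and CDKN2B, another inhibitor, rose by 1.93 (SE 0.22).

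Interferon-stimulated genes rose in both arms. Of 57 tested, 41 rose and 5 fell under DHT, with a median of 0.97, against 43 and 4 under vehicle with a median of 1.03. Over all genes tested 25.0% rose and 26.7% fell under DHT. IFI6, a small protein of mitochondria, went from 13.7, 12.5 and 10.4 CPM to 51.0, 59.4 and 69.9 CPM. RSAD2, the antiviral enzyme viperin, went from 1.16, 0.969 and 1.07 CPM to 12.1, 11.6 and 20.9 CPM. Neither gene's groups overlapped, and the log2 changes were 2.30 (SE 0.13) and 3.79 (SE 0.28). SAMD9 and PARP14 rose by 2.01 (SE 0.14) and 1.59 (SE 0.13). The 5 that fell became 3 without replicate 1 of PXN siRNA under DHT. USP18 and EIF2AK2, the kinase PKR, fell by 0.50 (SE 0.09) and 0.30 (SE 0.06). EIF2AK2 did not pass under vehicle, where its change was -0.13 (SE 0.06).

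The 250 bases before the start of IFI6 (RefSeq, GRCh38.p14, chr1:27672193-27672442, minus strand) are shown for the core of the interferon-stimulated response element, in capitals.
IFI6: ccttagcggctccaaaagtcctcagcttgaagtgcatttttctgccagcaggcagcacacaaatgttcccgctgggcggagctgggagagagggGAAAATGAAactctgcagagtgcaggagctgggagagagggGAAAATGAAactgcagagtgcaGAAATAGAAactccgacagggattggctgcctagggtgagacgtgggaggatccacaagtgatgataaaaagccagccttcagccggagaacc
The core was searched as GAAANNGAA on both strands, a match of letters only, and IFI6 holds it 3 times. It was in 39 of 60 windows of 45 listed genes, or 65.0%, against 8.11% of all windows and 6.52% of windows of tested genes. The matches of SAMD9 and PARP14, which rose, and of EIF2AK2, which fell, are shown on the strand of the gene.
SAMD9: ctgagaaatGAAACTGAAaccaaacct
PARP14: ccaggaaacGAAAGCGAAagagtcaaa
EIF2AK2: gtccaagggGAAAACGAAactgagaac
A gene with the match thus fell as well as rose.

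Genes of RNA sensing and of cytokine and interferon factors rose in 18 of 37 cases and fell in 6, or in 3 with upper-quartile scaling. Shares over all genes tested were 25.0% higher and 26.7% lower. IRF1, an interferon regulatory factor, rose from 4.54 ± 1.51 to 20.2 ± 2.97 CPM (SD, n = 3), and TLR3, a sensor of double-stranded RNA, by 1.49 (SE 0.15). MAVS, the adaptor of RNA sensing at mitochondria, fell by 0.25 (SE 0.05). Of 21 genes of MHC class I antigen presentation 15 rose and 4 fell. NLRC5, the transactivator of this pathway, went from 8.65, 10.99 and 9.51 CPM to 82.9, 67.3 and 97.3 CPM, a log2 change of 3.08 (SE 0.16). HLA-E rose by 1.15 (SE 0.15), and the chaperones PDIA3 and CANX fell by 0.53 (SE 0.09) and 0.43 (SE 0.09).

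Of 46 focal adhesion adaptors and kinases 17 rose and 13 fell, where 25.0% of all genes rose and 26.7% fell. LPXN, leupaxin, a LIM protein of the same family, went from 5.84, 6.78 and 6.003 CPM to 14.4, 10.9 and 14.5 CPM, and TGFB1I1, the other family member, Hic-5, was at 0.250 ± 0.1247 and 0.477 ± 0.138 CPM (SD, n = 3) and did not pass (adjusted p = 0.0906, edgeR). PTPN12, a phosphatase that binds paxillin, rose by 1.14 (SE 0.11), and DOCK1, an activator of RAC, fell by 0.95 (SE 0.07). FAK, encoded by PTK2, changed by 0.06 (SE 0.06) and did not pass, and vinculin, encoded by VCL, fell by 0.54 (SE 0.07). TGFB1I1, PTK2 and VCL were picked for their ties to paxillin after the values were seen, as were FKBP5, KLK2, ACPP, STEAP2, FOXA1, KRT8 and VWF among the members of other lists.

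Integrin and matrix genes rose in 16 of 40 cases and fell in 6, where 25.0% of all genes rose and 26.7% fell. SDC4, a syndecan of adhesions, rose by 1.40 (SE 0.18) and ITGA1 by 1.22 (SE 0.14), and ITGAV, the integrin alpha V chain, fell from 164 ± 6.17 to 82.0 ± 5.84 CPM (SD, n = 3). Actin cytoskeleton genes rose in 16 and fell in 16 of 48 cases. TMSB4X, which binds actin monomers, went from 51.4, 31.8 and 35.7 CPM to 242, 156 and 198 CPM, and DIAPH3, a formin, fell by 2.10 (SE 0.20). The actin count was 9 higher without replicate 2 of the control siRNA under DHT and 10 higher without replicate 1 of PXN siRNA under DHT, and 10 lower with upper-quartile scaling. Among 39 keratin and junction genes 15 rose and 9 fell. VIM, vimentin, went from 6.70, 4.12 and 3.596 CPM to 38.0, 24.0 and 28.6 CPM, and KRT18, a luminal keratin, fell by 0.47 (SE 0.08).

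Hippo pathway genes rose in 18 of 26 cases and fell in 6, where 25.0% of all genes rose and 26.7% fell. AMOTL2, an angiomotin, rose from 11.5 ± 0.547 to 23.6 ± 2.12 CPM (SD, n = 3), and LATS2, a kinase that restrains YAP, by 0.63 (SE 0.07). TEAD4, a partner of YAP, fell by 0.93 (SE 0.12). WWC1 fell by 0.76 (SE 0.08) under DHT and changed by -0.40 (SE 0.08) under vehicle.

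Rises and falls of growth factor signalling genes were alike in number. Over all genes tested 25.0% rose and 26.7% fell, and of protein-coding genes 25.26% rose and 33.34% fell. The falls in both lists below lay near the share of protein-coding genes. Of 49 receptor tyrosine kinase and RAS pathway genes 17 rose and 16 fell, and of 37 genes of PI3K and the insulin-like growth factor axis 12 rose and 13 fell. JUN, an AP-1 subunit, went from 67.3, 61.6 and 58.8 CPM to 149, 144 and 143 CPM. MAP2K1, the kinase MEK1, fell from 93.2 ± 4.61 to 58.9 ± 2.62 CPM (SD, n = 3), a log2 change of -0.66 (SE 0.06). RPS6KB1, the kinase S6K1, fell by 0.78 (SE 0.07), and IGFBP3, which binds insulin-like growth factors, rose by 1.15 (SE 0.16).

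TGF-beta and BMP genes rose in 14 of 30 cases and fell in 7, the 14 becoming 9 when replicate 2 or replicate 3 of the control siRNA or replicate 1 of PXN siRNA under DHT was left out. BMPR1B, a BMP receptor, went from 63.9, 68.3 and 72.4 CPM to 29.2, 29.3 and 30.3 CPM. Its change was -1.20 (SE 0.08), against -0.88 (SE 0.08) under vehicle. The difference had an unadjusted p of 0.00983 in edgeR and did not pass after adjustment. ID3, a BMP target, rose by 1.64 (SE 0.21). Wnt and Notch genes rose in 10 of 36 cases and fell in 11, near the 25.0% and 26.7% over all genes, the 10 becoming 6 without replicate 1 of the control siRNA or replicate 3 of PXN siRNA under DHT. RBPJ, the DNA-binding partner of Notch, fell by 1.04 (SE 0.07), and LEF1, a Wnt effector, rose by 2.21 (SE 0.22). TCF7 fell by 1.45 (SE 0.26) under DHT and changed by -0.24 (SE 0.25) under vehicle, where it did not pass.

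Genes of damage and death rose more often than they fell in both arms. Over all genes tested 25.0% rose and 26.7% fell under DHT. Of 29 targets of p53, 16 rose and 4 fell under DHT, or 2 with upper-quartile scaling. Of 39 genes of the BCL2 family and cell death 19 rose and 8 fell. Under vehicle the counts were like these, 16 and 5 for p53 targets and 19 and 9 for cell death genes. BBC3, the death activator PUMA, rose from 11.4 ± 0.729 to 26.9 ± 4.18 CPM (SD, n = 3). BMF, another BH3-only gene, went from 23.8, 16.8 and 16.3 CPM to 84.0, 57.3 and 76.7 CPM. BAK1 and CYCS, cytochrome c, fell by 0.66 (SE 0.07) and 0.61 (SE 0.09). Of 50 autophagy and lysosome genes 21 rose and 7 fell, or 4 with upper-quartile scaling, and under vehicle 20 rose and 5 fell. The 21 became 12 without replicate 2 of the control siRNA under DHT, and 11 without replicate 3 of the control siRNA or replicate 1 of PXN siRNA under DHT. SQSTM1, the autophagy receptor p62, rose from 445, 414 and 390.2 CPM to 966, 924 and 973 CPM, and LAMP1, a lysosomal membrane protein, fell by 1.13 (SE 0.10).

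Genes of protein production fell by small amounts in most cases. Of all genes tested 26.7% fell, and of the 2434 at 100 CPM or more 1278 fell, with a median of -0.20. The part that expression level has in the counts below was not tested. Of 73 cytoplasmic ribosomal protein genes 59 fell and none rose, with a median log2 change of -0.32. Of 53 nucleolar genes of ribosome biogenesis 50 fell and 1 rose, with a median of -0.54, and of 31 proteasome genes 30 fell. Of 53 nuclear-encoded respiratory chain genes 40 fell and none rose, with a median of -0.27. NOP58, of the snoRNA-bound methylation complex, fell from 108 ± 3.02 to 56.9 ± 4.01 CPM (SD, n = 3), and COX6C, of cytochrome oxidase, by 1.05 (SE 0.08). RPL4 fell by 0.52 (SE 0.09), and PSMD11, a proteasome lid subunit, by 0.64 (SE 0.06). The single nucleolar gene that rose, DDX47, lost its call in 8 of the settings tried.

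Of the 13 mitochondrially encoded genes 2 rose, MT-CYB and MT-ND3, by 0.43 (SE 0.15) and 0.31 (SE 0.12). The count was 10 in a fit of the 6 DHT libraries alone and 7 without replicate 2 of the control siRNA under vehicle. It was 0 without replicate 1 or 3 of the control siRNA under DHT, or without replicate 2 or 3 of PXN siRNA under DHT, and 1 without replicate 1 of PXN siRNA in either arm or replicate 3 of PXN siRNA under vehicle. MT-RNR2, the mitochondrial ribosomal RNA, took 1.18% to 1.46% of all counts in control libraries under DHT and 2.25% to 2.38% with PXN siRNA. Copies of mitochondrial and ribosomal protein sequences elsewhere in the genome make these counts uncertain, since the treatment of multiply mapped reads is not given.

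Amino acid transport and tRNA charging genes fell in 25 of 36 cases and rose in 1, SLC3A2, by 0.71 (SE 0.09). GOT1, an aspartate aminotransferase, fell by 0.79 (SE 0.07). Glycolysis and hypoxia genes fell in 19 of 41 cases and rose in 7, where 26.7% of all genes fell and 25.0% rose. LDHB, lactate dehydrogenase B, went from 334, 341 and 375 CPM to 111, 134 and 106 CPM, and PFKFB3, which sets a regulator of phosphofructokinase, fell by 1.68 (SE 0.12). P4HA2, which hydroxylates collagen, rose by 1.24 (SE 0.15).

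In CPM, the largest gains at 2-fold or more were in DIO3, SQSTM1, FTH1, COLCA1, SERINC2, GPNMB, MALAT1, NOS3, STX3 and KDM6B. DIO3, which inactivates thyroid hormone, lies at chr14:101561351-101563452, plus strand. It went from 91.4, 70.8 and 51.8 CPM to 845, 525 and 647 CPM under DHT and from 104, 70.8 and 57.6 to 803, 447 and 678 CPM under vehicle. The groups were far apart in both arms. DIO3OS, its antisense neighbour, rose by 3.40 (SE 0.27), and since no source says whether counting used strand, reads of the pair cannot be told apart. NOS3, endothelial nitric oxide synthase, went from 30.0, 22.0 and 20.3 CPM to 383, 243 and 311 CPM, and FTH1, the ferritin heavy chain, which has processed copies, rose by 1.66 (SE 0.16).

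The largest losses in CPM, beside FASN, SCD and KLK3, included ABHD2, TMBIM6, FADS2, MYO6, PRUNE2 and AMD1. ABHD2, a serine hydrolase, went from 2277, 2304 and 2406 CPM to 616, 749 and 720.2 CPM. MYO6, the myosin that walks toward the minus ends of actin, fell by 1.10 (SE 0.09). ABHD2 changed by -1.74 (SE 0.10) under DHT and -1.40 (SE 0.10) under vehicle. The difference had an unadjusted p of 0.03 in edgeR and did not pass after adjustment.

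By fold, the largest rises were in MRGPRE, AC109309.4, KRT75, RP11-242J7.1, MCPH1-AS1, RSAD2, NOS3, KRT80, DIO3OS and MAN1A1. MRGPRE, an orphan receptor, went from 0.369, 0.166 and 0.357 CPM to 28.5, 11.8 and 16.9 CPM, and KRT80, a keratin, from 1.79, 0.969 and 1.37 to 22.3, 13.2 and 16.5 CPM. The largest falls, beside that of PXN, were TMEM47, DTL, SHCBP1, SGOL1, MCM10, CEP55, ZNF367, NEK2 and PRR11. TMEM47, a junction protein, fell by 2.61 (SE 0.11), from 20.9, 21.9 and 22.4 to 3.77, 3.88 and 3.04 CPM. NEK2, a centrosomal kinase, fell by 2.21 (SE 0.21), and SGOL1, which guards sister chromatid cohesion, by 2.31 (SE 0.19).

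Markers of neuroendocrine and other cells were also measured. Of 10 neuroendocrine markers tested 4 rose and 4 fell, TUBB3, a neuronal tubulin, by 1.54 (SE 0.14) and STMN1, stathmin, by -0.88 (SE 0.08). NTS, neurotensin, was at 3.09, 0.803 and 2.05 CPM and 6.40, 4.79 and 2.73 CPM under DHT, and its call was lost with the DESeq2 Wald test and without any of 5 single libraries. Of 25 markers of other cell types, 9 passed the filter, and 3 rose and 4 fell. Without replicate 3 of the control siRNA under DHT 1 rose, and without its replicate 1 the falls were 2. COL1A1 rose by 0.82 (SE 0.09) and COL3A1 fell by 0.83 (SE 0.20). The summed level of the list was 46.8 to 56.1 CPM in control libraries and 66.9 to 75.8 CPM with PXN siRNA under DHT, and its part in other results was not tested. Within a cell type the markers differed. The endothelial marker PECAM1 had at most 3 counts in any library under DHT, and VWF had up to 795, with a change of 0.29 (SE 0.12) that did not pass. The basal marker TP63 had at most 1 count, and KRT14 had up to 19 and fell by 1.24 (SE 0.40), a call lost with the DESeq2 Wald test and without replicate 1 of the control siRNA or replicate 1 or 3 of PXN siRNA under DHT. The leukocyte marker PTPRC had at most 2.

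**Figure D5:**
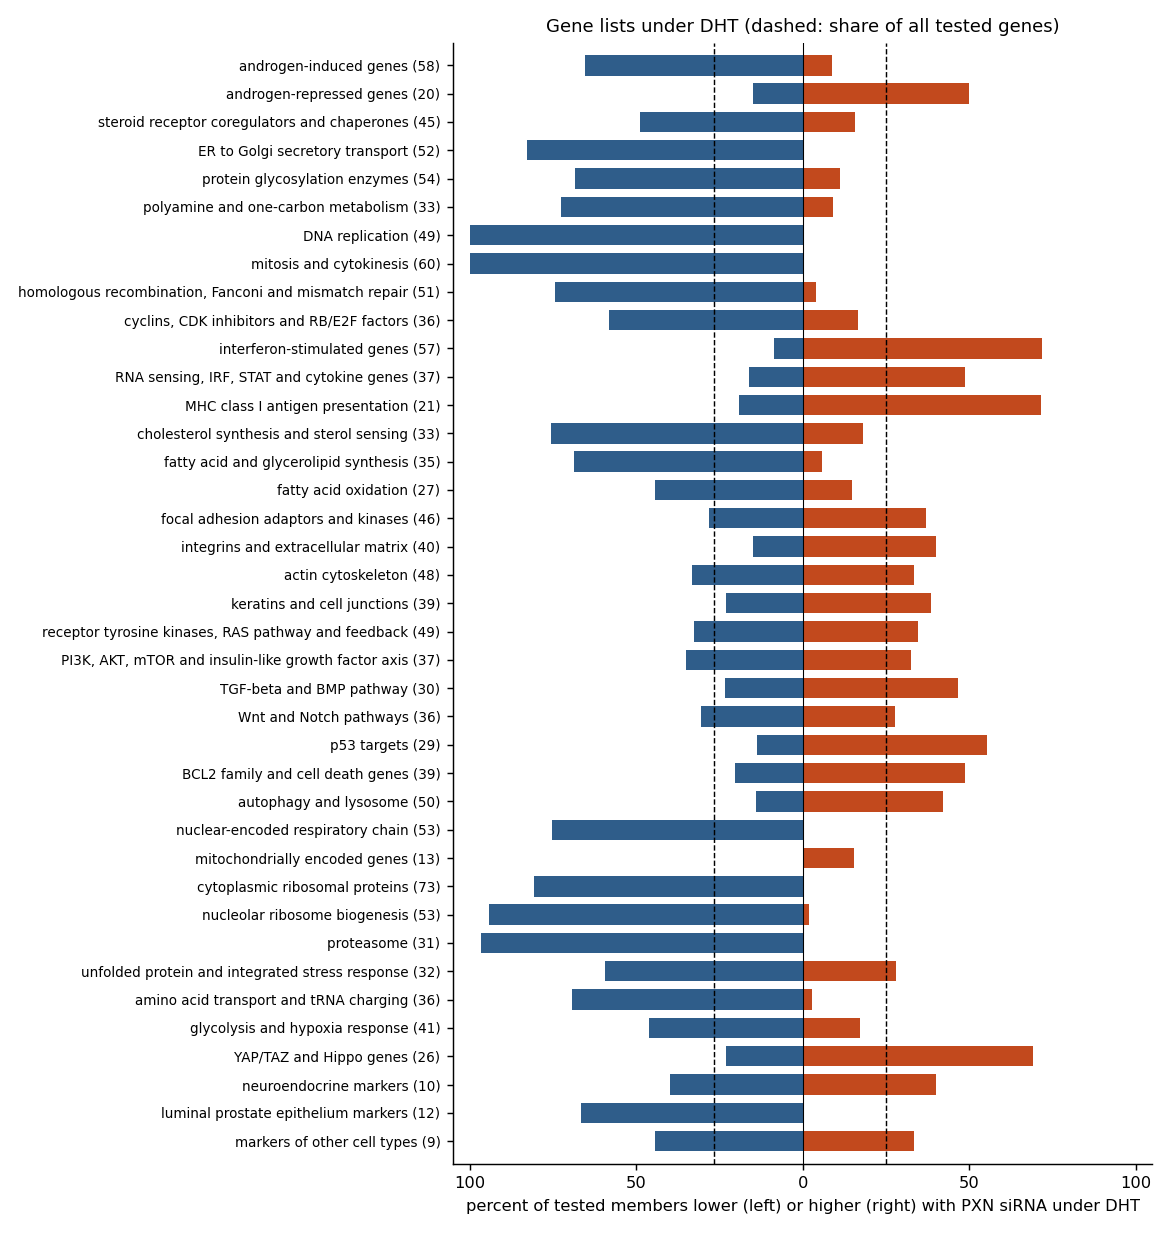
Share of the tested members of each list (number in parentheses) that fell (blue, to the left) or rose (red, to the right) with PXN siRNA under DHT, in percent. Dashed lines mark the shares over all genes tested, 26.7% lower and 25.0% higher. The mitosis and DNA replication lists reach 100% on the left.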

How the data were processed

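The labels describe RNA from LNCaP cells, extracted with RNeasy Plus Mini and prepared with TruSeq Stranded mRNA. The submitters' processing notes name Trimmomatic 0.32, STAR 2.4.2a, featureCounts of Subread 1.5.0p3 and GRCh38. The values used are raw counts per gene in the authors' deposited table. No source states the annotation, the strand setting or the treatment of multiply mapped reads, so overlapping, antisense and near-identical genes are uncertain.

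Groups came from the labels. All 12 libraries were fitted together with edgeR 4.0.16 in R 4.3.3, with 4 group means, the default low-count filter, trimmed mean of M values scaling and the quasi-likelihood test with Benjamini-Hochberg adjustment, and 8 residual degrees of freedom. Contrasts were PXN minus control siRNA under DHT, under vehicle, and their difference. The SE is the log2 change divided by the square root of the F statistic. The procedure was also run on simulated data in which far fewer genes changed than were called here. Its outcome is not given and is not used as support. Precision is limited by 3 libraries a group at 34321000 to 38633456 counts.

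Named genes were PXN, the 10 largest gains and losses in CPM and in fold, 10 risen and 10 fallen genes called only under DHT, genes called in opposite directions, the 5 smallest p-values of the difference, and up to 4 members of each list in its main direction and 2 against it. Another 10 genes were named after their values were seen. The 39 lists and the genes were chosen with earlier results of these data known. Genes of the lists are described by counts without a test of the list. Coordinates are from GENCODE 29, and promoters from RefSeq (GRCh38.p14). Alternatives were DESeq2 1.42.0 (Wald test, size factors), limma-voom (limma 3.58.1), upper-quartile scaling, other count filters, a fold threshold, the 6 DHT libraries alone, a replicate block and leaving out each library. Some named genes are not reported here.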

Additional observations from a re-analysis of the deposited data

How the results depend on the processing

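No called change of a named gene under DHT reversed in any setting tried, and genes called both in the main analysis and in another setting had no opposite signs. The count of genes called for the difference between the arms was 0, and became 37 with the DESeq2 Wald test, 1 with DESeq2 size factors, 35 with no low-count filter, and 0 to 45 when single libraries were left out. The cause was not tested. With genes of at least 1 CPM, which tests fewer genes, the count with a 2-fold change under DHT was 1366 in place of 2377 and that of genes called only under DHT was 249 in place of 701. With glmTreat, which asks for more than a 1.5-fold change, edgeR called 2234 genes under DHT in place of 9561. Leaving out single libraries gave 8276 to 9890 calls under DHT, 2116 to 2537 with a 2-fold change, 7796 to 9431 under vehicle, and 464 to 1025 called only under DHT.

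Replicate numbers are shared between groups in the labels. Deviations of same-numbered libraries from their group means correlated at 0.284, 0.151 and 0.0769 under DHT and at 0.21, 0.188 and 0.121 under vehicle. Since 1 of these is not over 0.1 and the labels name nothing shared, the numbers were not taken to pair the libraries. Within each arm every library correlated best with its own number, which is a hint of pairing from the data. A fit with the replicate block called 10869 genes under DHT, 10628 under vehicle and 58 for the difference, 40 of them lower under DHT than under vehicle.

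Totals were 34321000 to 38633456 counts. Of the 701 genes called only under DHT, 312 that rose and 83 that fell had under 1 CPM.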
